A study of Mus musculus with 4 samples.

Results

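The replication-dependent histone genes of the mouse were examined for open chromatin in Th17 cells (T-helper 17 cells), a CD4 T cell type named for its cytokine interleukin 17. Members were the protein-coding genes of GENCODE release M21 whose symbols begin with Hist1h, Hist2h, Hist3h or Hist4h, which gave 67 of 21938 protein-coding genes on chromosomes 1 to 19, X and Y. The rule reads symbols and positions only. By cluster, 54 members belong to Hist1 on chromosome 13, 10 to Hist2 on chromosome 3, 2 to Hist3 on chromosome 11 and 1 to Hist4 on chromosome 6. By protein, 6 encode the linker histone H1, 18 encode H2A, 18 encode H2B, 12 encode H3 and 13 encode H4.

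ATAC-seq reads accessibility through a transposase that cuts and tags the DNA it can reach. The series holds 1 group of primary Th17 cells of strain C57BL/6NJ in 4 biological replicates, with no treatment, genotype or second cell type to set against it. All 4 carry the same donor identifier, age is given as unknown, and whether they came from separate animals or cultures is not stated, so the spread between them may be technical. Each replicate had one deposited list of open regions, with 84615 ± 697 regions (SD, n = 4) of a median width of 639.5 ± 21.1 bp. The promoters of the Th17 markers Il17a, Il17f, Il23r and Ccr6 were open in every replicate, as were all 4 T cell markers (Cd3e, Cd3d, Cd4 and Lck). Among markers of other cells, 1 of 2 CD8 promoters was open (Cd8b1, with Cd8a at no region), as were 1 of 3 myeloid promoters and both matched erythroid promoters of 3 listed. Of B cell markers, Pax5 was open and Ms4a1 had no region. Markers speak only of promoter state, and a few open promoters of other lineages do not measure how many such cells were present. Sequencing depth is unknown because the lists hold no counts, so no counting intervals are given.

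Replication-dependent histone genes supply the histones that package newly copied DNA and are transcribed mainly in S phase, when the coactivator NPAT gathers on them in the histone locus body. Most are short genes without introns, many stand head to head as H2A and H2B pairs, and their mRNAs end in a stem-loop instead of a poly(A) tail. The stem-loop is bound by SLBP and cut by a machinery that includes the U7 small nuclear ribonucleoprotein.

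The promoters of the strongest member of each class, and of 2 members with no open region, are shown first because the class-specific letters in them recur through the results. Each line runs from 170 bases before to 20 bases after the RefSeq start, 5′ to 3′ in the direction of the gene, on build GRCm38.p6. Capitals mark, on either strand, the strings TATAAA (the TATA box), CCAAT (the box bound by NFY), ATTTGCAT (the octamer bound by POU2F1), GGTCC (part of the H4 element read by HINFP), AAACACA (the H1 box) and TTTCGCGC or TTTGGCGC (E2F). On the other strand the CCAAT box reads ATTGG and the octamer reads ATGCAAAT.
Hist1h1e, chr13:23622539-23622728, minus strand: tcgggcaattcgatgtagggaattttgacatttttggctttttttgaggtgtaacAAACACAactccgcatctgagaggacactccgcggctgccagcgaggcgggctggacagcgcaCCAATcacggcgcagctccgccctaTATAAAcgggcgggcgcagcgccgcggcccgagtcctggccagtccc
Hist3h2a, chr11:58954515-58954704, plus strand: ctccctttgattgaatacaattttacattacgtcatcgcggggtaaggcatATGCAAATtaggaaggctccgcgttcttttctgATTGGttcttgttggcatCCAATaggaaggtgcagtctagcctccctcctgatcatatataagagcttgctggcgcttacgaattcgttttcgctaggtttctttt
Hist3h2ba, chr11:58948741-58948930, plus strand: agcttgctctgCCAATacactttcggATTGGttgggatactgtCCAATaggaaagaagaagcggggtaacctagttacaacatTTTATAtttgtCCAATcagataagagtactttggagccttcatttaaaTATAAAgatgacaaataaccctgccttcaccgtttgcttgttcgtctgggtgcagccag
Hist1h3e, chr13:23562366-23562555, minus strand: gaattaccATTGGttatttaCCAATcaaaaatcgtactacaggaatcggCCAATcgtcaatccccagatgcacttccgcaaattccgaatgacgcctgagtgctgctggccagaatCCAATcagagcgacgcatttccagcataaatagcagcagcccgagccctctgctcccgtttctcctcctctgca
Hist1h4m, chr13:21811576-21811765, plus strand: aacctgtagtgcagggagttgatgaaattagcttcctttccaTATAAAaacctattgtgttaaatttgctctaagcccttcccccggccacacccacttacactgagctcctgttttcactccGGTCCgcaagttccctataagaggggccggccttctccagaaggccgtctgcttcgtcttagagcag
Hist1h2ao, chr13:21810197-21810386, plus strand: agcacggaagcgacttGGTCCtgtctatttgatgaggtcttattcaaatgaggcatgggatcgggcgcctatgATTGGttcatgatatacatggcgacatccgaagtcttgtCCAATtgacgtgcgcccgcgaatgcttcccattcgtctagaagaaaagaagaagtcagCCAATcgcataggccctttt
Hist1h1t, chr13:23695641-23695830, plus strand: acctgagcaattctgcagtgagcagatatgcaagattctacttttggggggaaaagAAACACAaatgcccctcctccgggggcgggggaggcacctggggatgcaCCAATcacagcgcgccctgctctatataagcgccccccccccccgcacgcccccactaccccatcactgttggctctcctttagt
Hist1h1e encodes linker histone H1.4 and holds the H1 box, the CCAAT box and the TATA box in this window. Hist3h2a (H2A) holds the octamer and 2 matches to the CCAAT box, one on each strand, and Hist1h3e (H3) holds the CCAAT box but no TATAAA. Hist1h1t, the testis linker histone gene, and Hist1h2ao, an H2A gene of a duplicated segment, hold strings of the same kinds, and neither had a region.

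The first question was how many of the promoters were open. The window was 1 kb to each side of every annotated transcription start site (TSS) of a gene, and a promoter was called open when regions of all 4 replicates, each list read by itself, reached into it. By this rule 59 of 67 members (88.1%) were open, against 64.1% of all protein-coding genes, and the remaining 8 had no region in any replicate, against 32.3% of all genes, so no member was open in some replicates and not in others. With only the strongest 50000 regions of each replicate, 39 of 67 members were open, against 55.5% of all genes. All 12 H3 and all 13 H4 genes were open, as were 15 of 18 H2A, 15 of 18 H2B and 4 of 6 H1 genes. Hist2, Hist3 and Hist4 were open throughout (10, 2 and 1 members), and all 8 members without a region belong to Hist1, where 46 of 54 were open. Only the share is compared here, with no test, since members share regions and sequence and are not replicates.

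Open promoters are in general rich in the CpG dinucleotide, and so are histone genes. The median ratio of observed to expected CpG within 1 kb of the TSS was 0.757 over the members. It was 0.474 over all protein-coding genes. With genes divided into 5 equal groups by this ratio, 39 of 43 members in the highest group were open, against 96.2% of all genes there, and 16 of 18 in the next, against 93.2%. In the middle group 4 of 5 were open, against 78.4%. The lowest group held 1 member, Hist1h1d, which was not open, against 13.8% of all genes there that were. The excess of open promoters over all genes was thus not seen within the groups that hold most members.

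The 8 members without a region fall into 3 kinds. Hist1h2bq (H2B) and Hist1h2ao (H2A), and Hist1h2ap (H2A) and Hist1h2br (H2B), are 2 divergent pairs in block 1 of Hist1 that are copies of each other. In the 200 bases before the start codon Hist1h2ao and Hist1h2ap are identical at 200 of 200 bases, and so are Hist1h2bq and Hist1h2br. Of all 50-base strings within 1 kb of their TSSs, 100% occur again elsewhere in the genome. Reads from such sequence have no unique place, and whether the authors' filters removed them is not given in the sources used here, so whether these 4 promoters are closed or only unseen cannot be told apart.

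Next are the testis members. Hist1h1t encodes the testis linker histone H1t, and Hist1h2ba and Hist1h2aa encode the testis H2B and H2A variants known as TH2B and TH2A. Their windows are mostly unique (repeated shares of 0, 6.90 and 6.90%), and none of the 3 had a region in any of the 4 replicates. Hist1h2ba and Hist1h2aa form block 4 of Hist1 alone, as a divergent pair with 306 bp between start codons.

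The last is Hist1h1d, which encodes linker histone H1.3. Its annotated TSS lies 1828 bp before its start codon, and with the window placed on the start codon it had a region in all 4 replicates, at a signal percentile of 49.2 ± 1.32 (SD, n = 4). On that placement 60 of 67 members were open. With the summit itself required within 1 kb of a TSS, 50 of the 59 open members kept the call, against 96.3% of all open genes.

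The next question was how strong the open promoters were. Strength is given as the percentile of the strongest region at the promoter among all regions of the same replicate, ranked by the deposited signal value, the authors' enrichment over background. The median over the 59 open members was 54.4, against 79.2 over all open protein-coding genes, with SDs of 2.32 and 0.491 over the medians of single replicates (n = 4). In the single replicates the members' medians were 55.7, 52.9, 52.9 and 50.01, against 79.3, 78.8, 79.99 and 79.1 for the genes, so the members lay lower in every replicate. Of the 59 members, 6 lay above the gene median.

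Ranked by the other deposited measure, −log10 q, the order turned round. The members' median percentile was then 96.1, against 85.8 over all open genes (SDs over replicates 0.382 and 0.597), and 51 of 59 lay above the gene median. The percentile by −log10 q exceeded that by signal in 57 of 59 members, by a median of 40.2 points, against 62.2% of genes and a median of 3.26 points. The direction of the difference from other promoters thus depends on which deposited measure is ranked. The regions at members were also wide. The strongest regions of the 59 members were 37 distinct ones, of a median 1935 ± 38.7 bp (SD, n = 4), against 1312 ± 37.8 bp at all open promoters. Of the 37, 15 were over 2 kb. The part of width in the difference between the rankings was not tested.

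**Figure D1:**
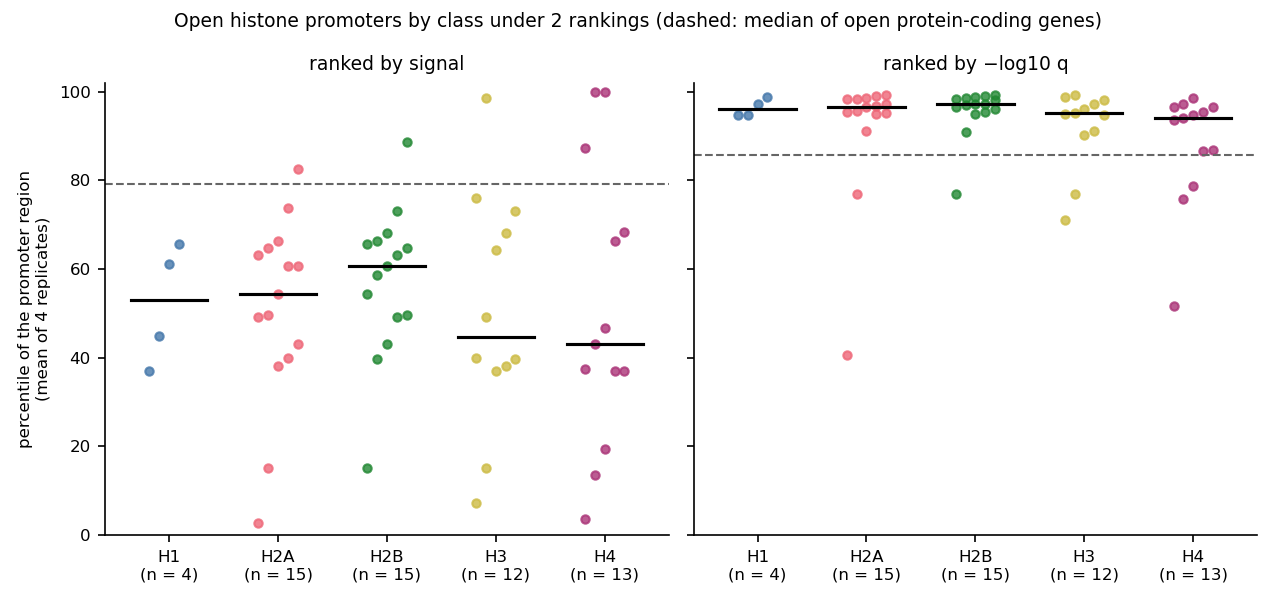
Percentile of the promoter region of each open histone gene by class, ranked by signal (left) and by −log10 q (right). Points are members (mean of 4 replicates), black bars class medians and the dashed line the median of open protein-coding genes. Most points lie below the line on the left (53 members at or below 79.2) and above it on the right (51 members over 85.8).

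The 4 clusters did not stand alike. Hist3, with 1 H2A and 1 H2B gene, was highest by signal, at a median of 85.7, followed by Hist2 at 66.4, Hist1 at 49.2 and Hist4 at 46.7. By −log10 q the order was another, with Hist2 at a median of 97.8, Hist1 at 95.4, Hist3 at 93.9 and Hist4 at 86.9. Within Hist1 the members form 4 blocks separated by more than 100 kb, and the open members of blocks 1, 2 and 3 had medians of 54.4, 43.1 and 39.8 by signal. By class the medians were 53.0 for H1, 54.4 for H2A, 60.8 for H2B, 44.6 for H3 and 43.1 for H4. Members ranged from 37.0 to 65.7 in H1, 2.77 to 82.7 in H2A, 15.2 to 88.7 in H2B, 7.15 to 98.7 in H3 and 3.53 to 99.995 in H4, so the classes overlapped.

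**Figure D2:**
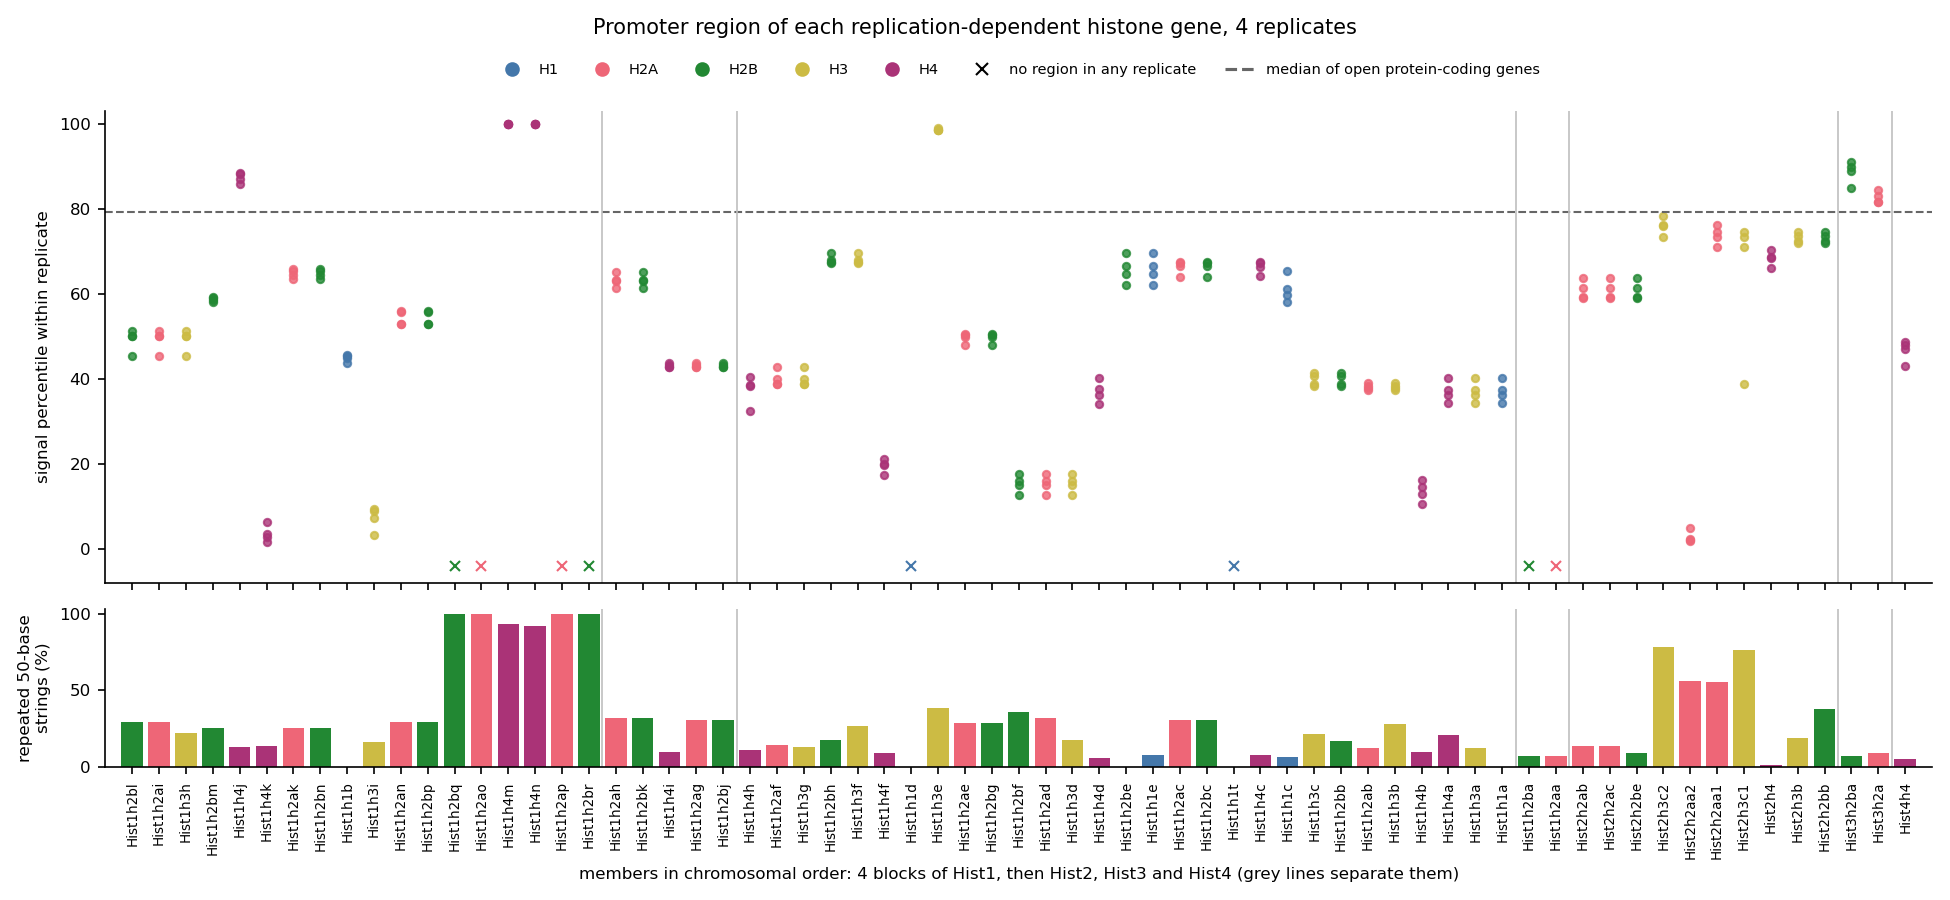
Signal percentile of the promoter region of each member in each of the 4 replicates (points, upper panel), in chromosomal order, with the share of repeated 50-base strings within 1 kb of the TSS below. The 4 members whose bars reach 100% have no region, and Hist1h4m and Hist1h4n between them, at 93.2 and 92.2%, are the strongest.

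The 2 strongest members encode H4 and lie inside the same duplicated segment as the repeated pairs without a region. Hist1h4m (chr13:21811746-21812147, plus strand) had a signal of 34.0, 33.7, 31.99 and 33.2 in replicates 1 to 4, which placed it at a percentile of 99.995 on average. Hist1h4n (chr13:21831767-21832196, minus strand) had 22.2, 21.9, 20.7 and 18.997, with a mean percentile of 99.94. The 4 values of the first all exceeded the 4 of the second, although their promoters match at 199 of 200 bases before the start codon. By −log10 q they were not at the top, with mean percentiles of 98.5 and 96.6.

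The summits of these regions were not at the promoters. They lay 656, 659, 660 and 660 bp after the TSS at Hist1h4m, and 664, 654, 662 and 664 bp after it at Hist1h4n, past the annotated end of each gene. The 100 bases around the mean summit are printed for both, in the direction of the gene, because they show where the copies part. Lower case covers the 53 bases of the shared run that fall in both windows (and the 2 bases before them at Hist1h4m). Capitals mark the bases after the run, which differ. At Hist1h4n the run is already under way at the first printed base, so its full length is not shown.
Hist1h4m, chr13:21812355-21812454, plus strand: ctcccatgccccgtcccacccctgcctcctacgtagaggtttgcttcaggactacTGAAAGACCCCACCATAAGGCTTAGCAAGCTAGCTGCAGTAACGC
Hist1h4n, chr13:21831485-21831584, minus strand: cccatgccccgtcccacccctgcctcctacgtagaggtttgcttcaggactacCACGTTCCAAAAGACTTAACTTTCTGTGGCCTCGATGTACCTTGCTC
The summit is the base at position 51 of the first line and 50 of the second, near the end of the shared run in both. The 50-base string centred on it occurs only once in the genome in both, while 93.2 and 92.2% of the strings in the promoter windows are repeated. The strongest signal was thus near the end of the run that the copies share. Sequence past the run is not all unique. In the 500 bp after the stop codon, which extend past the run, 82.6 and 76.8% of strings were repeated. Single strings in the promoter windows had up to 440 and 468 copies in the genome. Neither region reached the TSS: that at Hist1h4m began at 21811765, after the TSS at 21811746. That at Hist1h4n, on the minus strand, ended at 21832102, short of the TSS at 21832196. The values at these members thus do not measure the sequence before their starts. What sets the height there was not tested.

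Apart from these, 4 members stood above the gene median by signal. Hist1h3e (H3, chr13:23561534-23562369) had 17.3, 18.3, 16.3 and 16.5, a percentile of 98.7 ± 0.278 (SD, n = 4), and its region was narrow (904 ± 33.5 bp). Its summit was at −24.3 bp from the start codon on average, on a string that occurs once in the genome, and the region was high under −log10 q too, at 99.2. Hist3h2ba (H2B) had 12.2, 13.9, 13.1 and 12.9, at 88.7 ± 2.63, and Hist3h2a (H2A) had 12.1, 11.8, 11.2 and 11.1, at 82.7 ± 1.34. Hist1h4j (H4) had 13.2, 13.1, 12.4 and 12.1, at 87.4 ± 1.24.

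In Hist2 the values at the copies again differed from each other. Hist2h2aa1 and Hist2h2aa2, H2A genes whose promoters match at 199 of 200 bases, had signals of 9.92, 9.51, 9.21 and 10.03 at the first and 2.19, 2.16, 2.37 and 2.21 at the second. Every value of the first was above every value of the second, and the percentiles were 73.8 ± 2.22 and 2.77 ± 1.43, the second the lowest of all open members. Repeated strings make up 55.5 and 55.8% of their windows. Hist2h3c2 and Hist2h3c1, H3 genes identical at 200 of 200 bases before the start codon, had percentiles of 76.0 ± 2.03 and 64.4 ± 17.1. The summit at Hist2h3c2 lay on average 518.5 bp after the start codon, past its coding part of 411 bp. The SD at Hist2h3c1 was the largest of any member because its strongest region was that of its neighbour Hist2h2aa1 in replicates 1 to 3 (74.5, 71.0 and 73.4) and another region, at 38.8, in replicate 4. With the window on its start codon the percentile was 40.1 ± 6.79.

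The other members of Hist2 lay close together. Hist2h3b (H3) and Hist2h2bb (H2B) shared a region at 73.1 ± 1.18, Hist2h4 (H4) stood at 68.4 ± 1.75, and Hist2h2ab, Hist2h2ac (both H2A) and Hist2h2be (H2B) shared a region at 60.8 ± 2.15. Hist4h4, the lone H4 gene of chromosome 6, had signals of 6.03, 5.61, 5.59 and 5.96, at 46.7 ± 2.54.

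At the low end were 7 members on 5 regions. Beside Hist2h2aa2 these were Hist1h4k (H4), at 2.37, 2.28, 2.44 and 2.08 in signal and 3.53 ± 1.97 in percentile, Hist1h3i (H3) at 7.15 ± 2.72, Hist1h4b (H4) at 13.6 ± 2.41, and Hist1h2bf (H2B), Hist1h2ad (H2A) and Hist1h3d (H3), which shared a region at 15.2 ± 2.06. These were low by −log10 q as well, at 40.7 for Hist2h2aa2, 51.6 for Hist1h4k, 71.1 for Hist1h3i, 75.8 for Hist1h4b and 77.0 for the shared region, all below the gene median of 85.8. Hist1h4k and Hist1h4j thus lay at opposite ends although both encode H4 in the same block.

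Among the linker histones Hist1h1e was highest, with signals of 9.00, 8.39, 8.11 and 7.67 and a percentile of 65.7 ± 3.13. Hist1h1c, which encodes H1.2, followed at 61.1 ± 3.05 and Hist1h1b (H1.5) at 44.9 ± 0.846. Hist1h1a (H1.1) was lowest at 37.0 ± 2.41, but through the region of Hist1h4a and Hist1h3a. That region ends at 23762955, before the TSS of Hist1h1a at 23763666, and only reaches into its window. Besides Hist2h3c1, the members whose percentile varied most between replicates were Hist1h4h (H4, SD 3.46), Hist1h1e, Hist1h2be (H2B), on the same region as Hist1h1e, and Hist1h1c. The value at Hist1h2be comes through a long annotated transcript that begins near Hist1h1e, and with the window on its start codon it was 46.9 ± 1.96.

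The replicates carry 2 different library tags in the deposited peak names, with KS134 for replicates 1 and 2, KS136 for replicates 3 and 4 and no explanation of either. The names also hold the words 72hrs and ASTARR.insert, whose meaning is not given, so what they say of the cells or libraries is unknown and ATAC-seq is the assay as labelled. Among the 59 open members 2 had higher percentiles in both KS134 replicates than in both KS136 replicates, against 17.9% of all open genes, and 2 had lower ones, against 22.2%. With 2 replicates on each side an exact permutation test cannot reach 0.05, and no test was run.

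Since many histone genes stand head to head, the divergent pairs were examined next. Within 2 kb between start codons 15 such pairs were found, of which 12 join an H2A with an H2B gene. The distance between start codons ranged from 279 bp, at Hist1h2bl and Hist1h2ai, to 1364 bp, at Hist1h3a and Hist1h1a, with a median of 306 bp. Both genes were open in 12 pairs, in each case through one region, and the summit lay between the start codons in all 4 replicates in 10. At Hist1h2bl and Hist1h2ai the summit was at −23.5, −23.5, −21.5 and −21.5 bp from the midpoint in replicates 1 to 4, negative towards Hist1h2bl, and the region had a percentile of 49.2 ± 2.61. At Hist1h3a and Hist1h1a the summit was at −1118, −1376, −1108 and −1376 bp from the midpoint, negative towards Hist1h3a and outside the space between the start codons. The 3 pairs without a region were the testis pair and both repeated pairs.

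As a result of this sharing, 59 open members gave only 37 regions: 20 were the strongest region of 1 member, 12 of 2 members and 5 of 3 members. A region counted for a member when it reached into the window, even where it did not reach the TSS, as at Hist1h1a. Counted once per region the median percentile was 58.7 by signal. Values of members on one region are one measurement, and a value at one gene of a pair cannot be assigned to it alone.

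Where the summit lay relative to the gene differed between classes. Over the 59 open members the summit was a median 203 bp from the annotated TSS, whatever the direction. Classes were compared from the start codon, in the 37 members that were the nearest to their region's summit. Summits lay before the start codon in all 6 H2A and 10 of 11 H2B members, at medians of −115 bp for H2A and −91 bp for H2B. At H4 genes only 2 of 11 lay before it, the median was 327 bp after it, and 7 were more than 250 bp after it. At the 3 H1 genes the summits were 670, 898.5 and 1087 bp after the start codon, and the 6 H3 genes divided evenly, with means of 3 before the start codon and of 3 more than 250 bp after it. Hist1h3i, one of those after it, had summits at 586, 492, 486 and −7 bp in replicates 1 to 4, so its replicates did not fall on one side. The coding part of an H4 gene is 312 bp long and that of an H1 gene 651 bp in the median, so several of these summits lay at or past the end of the coding sequence. Members were assigned by nearness to the summit, and a divergent pair shares its summit, so these are positions, not independent replicates.

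**Figure D3:**
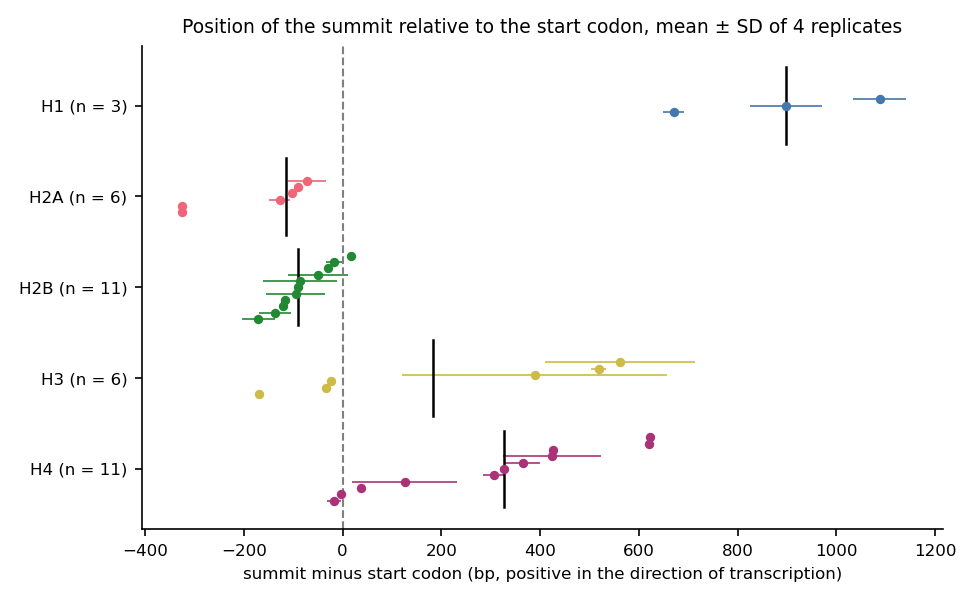
Distance of the region summit from the start codon in bp, positive in the direction of transcription, for the 37 members nearest to their own summit (mean ± SD over 4 replicates), with black bars at class medians. H2A and H2B points cluster just before 0, H4 points reach 623 bp after it, and the H1 points start at 670 bp.

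Repeated sequence is unevenly spread along these genes. In coding sequence the median share of repeated 50-base strings was 61.9% at H4, 73.7% at H2A, 65.1% at H2B, 74.8% at H3 and 10.1% at H1 genes. In the 500 bp before the start codon it was 25.7% at H2A and 21.0% at H2B, and 0 at H1, H3 and H4. In the 500 bp after the stop codon it was 0 in every class. The 50-base string at the summit was unique in 58 of 59 open members. The exception, Hist2h3c1, has summits in 2 different regions, so its mean position is not a summit. The part of repeats in the position of summits was not tested. Of the 10 members with over 50% repeated windows 6 were open, with a median percentile of 74.9, and of the other 57 members 53 were open (93.0%), with a median of 49.6.

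Promoter strings followed the classes. RefSeq promoters, from 250 bases before to 50 after the start, were found for 62 of 67 members and compared with all 32851 promoters of the same table, on both strands. The CCAAT box was in 53 of 62 members (85.5%), against 37.4% of all promoters: in all 6 H1, all 18 H2A, all 16 H2B and all 10 H3 promoters, but in 3 of 12 at H4. TATAAA was in 35 (56.5%), against 13.6%, and was found in every class, from 4 of 10 at H3 to 8 of 12 at H4. With 500 bases before the start, TATAAA was in 61.3% of members, against 25.3% of all promoters, and the CCAAT box in 88.7%, against 55.0%.

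The octamer was in 14 members (22.6%), against 1.74%, and these were 7 of 18 H2A and 7 of 16 H2B promoters. The longer window left its share of members at 22.6%, against 3.01% of all promoters. The E2F strings were in 9 (14.5%), against 0.813%, namely 5 H2A and 4 H2B promoters, and the longer window gave 16.1%, with 1 H3 promoter among them, against 1.18%. The H1 box was in 5 of 6 H1 promoters, with 9 members in all (14.5%), against 7.18%. With 500 bases before the start the shares were 16.1% of members and 14.5% of all promoters. GGTCC was in 11 of 12 H4 promoters, while its share over all members was 43.5%, against 45.5% of all promoters, and the longer window gave 31 of 62 members, against 63.2%. H2A and H2B pairs share their intergenic sequence, so one match can count for both genes, and a match is a description of letters, not a site in use.

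**Figure D4:**
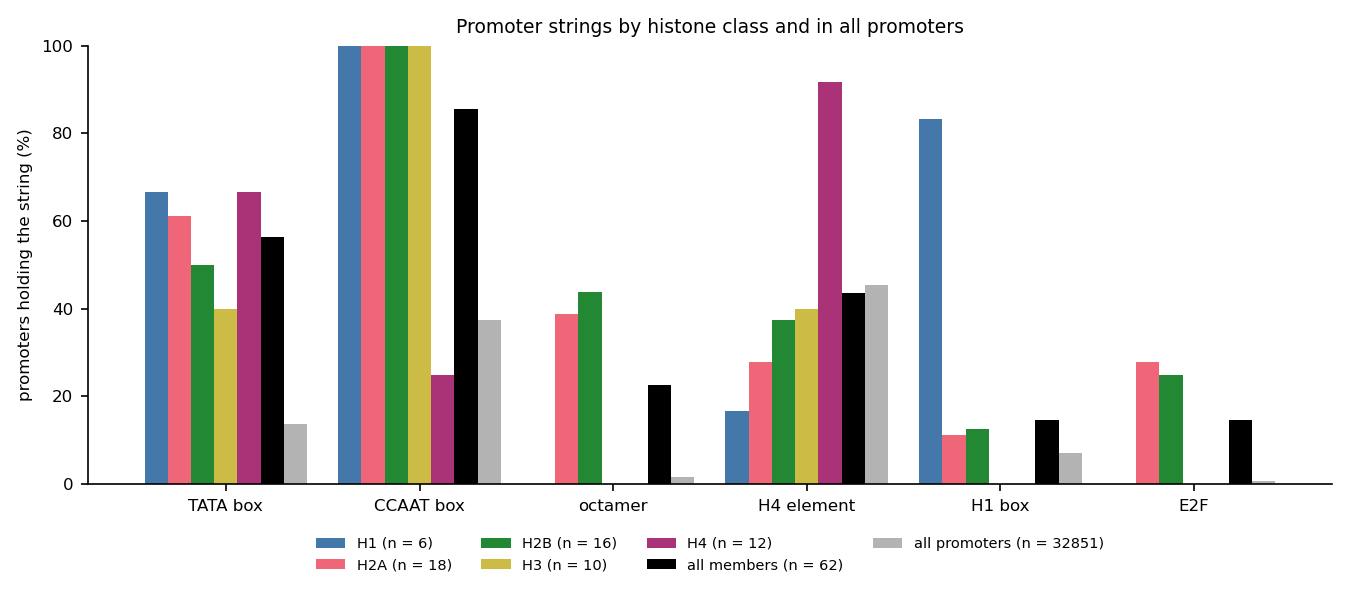
Share of promoters that hold each string on either strand, from 250 bases before to 50 after the RefSeq start, for each histone class, all members and all promoters in the table. The CCAAT box is at 85.5% of members against 37.4% of all promoters, and of the 5 classes only H2A and H2B have octamer or E2F bars above 0.

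The stem-loop that marks replication-dependent histone mRNAs was looked for on the gene's own strand by its consensus, in which 1 base pair of the stem may vary. Within 200 bp after the last annotated stop codon it was found in 46 of 67 members, at a median of 32 bp after the stop codon. It lay within 200 bp of the annotated gene end in 32 members. The 2 forms seen are printed to show the base pair in which they differ, and capitals mark the stem-loop itself:
Form in 38 members, among them Hist3h2ba on chromosome 11: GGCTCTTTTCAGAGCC
Form in 8 members, among them Hist1h4k on chromosome 13: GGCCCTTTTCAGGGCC
It was present after the stop codon in 5 of 6 H1, 15 of 18 H2A, 10 of 18 H2B, 8 of 12 H3 and 8 of 13 H4 genes. The rarer form was that of all 8 H4 genes with a match and of no member of another class. At Hist1h4m and Hist1h4n it lay 276 and 278 bp before their summits. At Hist1h2bp, Hist1h2bq and Hist1h2br, all without a match, the stop codon used lay far from the start codon. The span was 1549, 2072 and 2072 bp, against a median of 381 bp in H2B. Sequence nearer their start codons was not searched, so a stem-loop there would be missed. Other members without this exact string may carry a variant of it that was not searched.

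The space between neighbouring members was examined last. Between the members' windows lie 34 stretches of 2181563 bp in all, which held 77 regions found in all 4 replicates, or 3.53 per 100 kb, against 2.52 per 100 kb over the genome. With only the strongest 50000 regions of each replicate the densities were 1.88 and 1.59 per 100 kb. The short and the long stretches were of different kinds. The 30 stretches under 50 kb held 12 regions (4.48 per 100 kb), and the 4 of 50 kb or more held 65 (3.40 per 100 kb), with median signal percentiles of 48.8 and 45.4, against 58.8 over all shared regions. Of the 12, 2 lie at the start codons of Hist1h1d and Hist1h2be, whose annotated TSSs are elsewhere.

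The 4 long stretches are all in Hist1, and 2 of them hold tRNA genes. These 2 held 76 of the RefSeq tRNA genes, of which 64 were in a shared region, and 44 of the 65 regions in long stretches held a tRNA gene. Over the whole Hist1 span of 2218319 bp, 65 of 77 tRNA genes were in a shared region (84.4%), against 192 of 326 (58.9%) elsewhere in the genome, a comparison chosen after the values were seen. The 4 long stretches held 48 other protein-coding genes, of which 7 were open. Over all protein-coding genes the open share was 64.1%, and in the lowest CpG group it was 13.8%. The CpG ratio of the genes in the stretches was not taken into account. The largest family among them, 36 Vmn1r genes, which encode vomeronasal pheromone receptors, had 0 open promoters. The stretch of 199796 bp between blocks 1 and 2 had 27 regions (13.5 per 100 kb) and 31 tRNA genes, and that of 1485835 bp between blocks 2 and 3 had 33 regions (2.22 per 100 kb) and 45 tRNA genes.

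**Figure D5:**
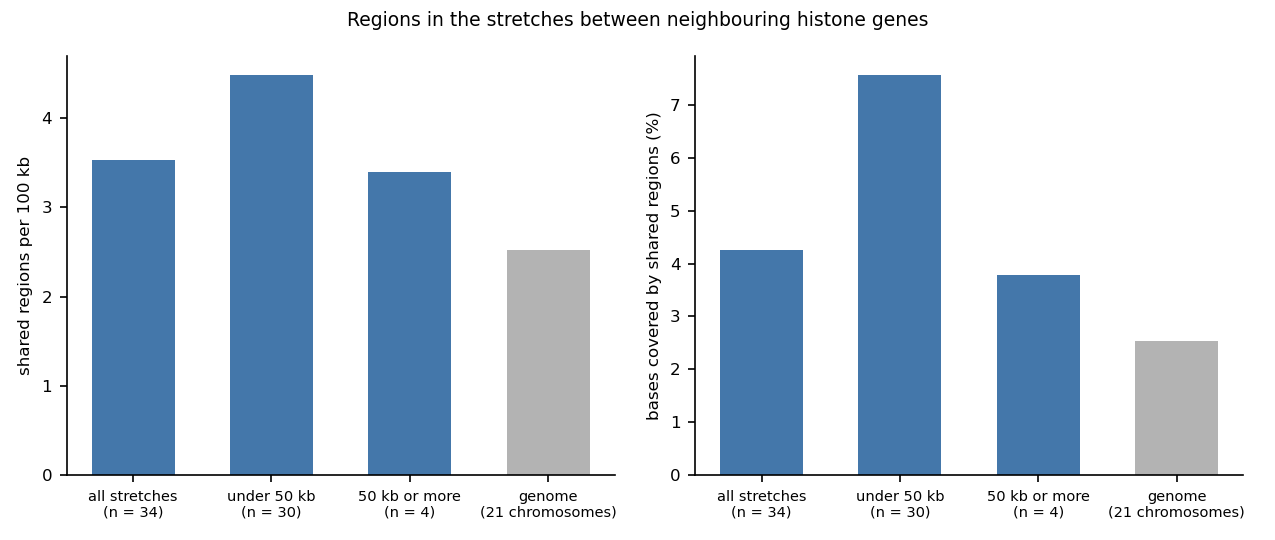
Shared regions per 100 kb (left) and share of bases covered by shared regions (right) in the stretches between neighbouring histone genes and in the whole genome. All stretches have 3.53 regions per 100 kb and 4.25% covered, against 2.52 and 2.53% over the genome, and the covered share includes ends of regions that reach out of the members' windows.

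The strongest regions between members were not all near genes. The strongest, of 844 bp at chr13:21768307-21769150 in block 1, had percentiles of 99.3, 97.3, 92.5 and 95.4. It lay 11862.5 bp from Hist1h1b, with the olfactory receptor gene Olfr1359 as the nearest gene outside the family at 70651.5 bp. A region at the TSS of Btn2a2, a butyrophilin gene, had 95.2, 94.7, 93.7 and 90.5. A region 3664.5 bp from the TSS of Hist1h1t had 95.5, 95.1, 90.9 and 92.5, with the iron regulator Hfe as the nearest other gene at 18704.5 bp. This region, chr13:23691672-23692537, lay inside the annotated gene of another member, Hist1h2bc (chr13:23684199-23692908). Of the 5 strongest, 2 others lay in the long stretch between blocks 2 and 3, where the nearest other gene was Vmn1r223 at 23345 and 51856 bp, at mean percentiles of 95.2 ± 1.97 and 90.1 ± 1.00, and both held tRNA genes.

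Genes that act on or stand beside this family were open in most cases. Of 15 listed replication-independent histone genes, some of them germ-cell genes, 12 were open, against 64.1% of all genes. Of the 15, 9 fall in the 2 highest CpG groups, where 93.2 and 96.2% of all genes were open. Their median percentile was 74.2 by signal and 89.8 by −log10 q, against 79.2 and 85.8 over all open genes. The H2A.Z genes H2afz and H2afv stood at 67.6 ± 1.24 and 98.5 ± 0.388, the H3.3 genes H3f3a and H3f3b at 86.9 ± 1.24 and 84.1 ± 1.12, and Cenpa, which encodes the centromeric H3, at 90.9 ± 1.11. The 3 without a region, H1fnt, H2afb1 and Hils1, are known from male germ cells, as are the 3 testis members without a region. H1foo, the oocyte linker histone gene, did have a region, at 80.9 ± 2.83.

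All 27 listed genes of histone gene transcription and mRNA processing were open, against 64.1% of all genes, and 23 of them fall in the 2 highest CpG groups, where 93.2 and 96.2% of all genes were open. Their median percentile was 86.2 by signal and 95.1 by −log10 q, against 79.2 and 85.8 over all open genes. Npat, the coactivator of the histone locus body, stood at 92.9 ± 0.848, Casp8ap2, which encodes the body's protein FLASH, at 98.6 ± 0.250, and Hinfp, the factor that reads the H4 element, at 99.2 ± 0.406. Slbp, the stem-loop binding protein, was at 85.5 ± 1.81, and the U7-specific Lsm10 and Lsm11 were at 98.3 ± 0.974 and 85.8 ± 1.16. Pou2f1, the octamer factor, was at 99.9, and Nfya, Nfyb and Nfyc, the 3 subunits of NFY, were at 74.7 ± 1.46, 91.2 ± 1.31 and 94.7 ± 0.845. The 5 proliferation markers were open as well, from Mcm2 at 49.7 ± 2.87 to Ccna2 at 96.5 ± 0.945. An open promoter does not measure transcription, and expression was not measured in these files.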

How the data were processed

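ATAC-seq was measured in 4 replicates of Th17 cells, and the deposited lists of open regions were the input. Per the file headers and peak names, each list holds the authors' regions with a summit; the sources used here name no aligner, peak caller or mapping filter, and the names carry words for masked and deduplicated reads. The deposited signal value is a ratio of the peak to background, with no normalisation across replicates. Each peak also has a deposited −log10 p and −log10 q, the lowest −log10 q of a list being 1.00 to 1.01. The deposited display score was not used. There are no counts, so depth is unknown and precision is the spread over replicates.

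Regions outside chromosomes 1 to 19, X and Y were left out and the rest ranked within each replicate by signal. A promoter was open when each replicate had a region overlapping 1 kb on each side of any annotated TSS. Regions of the 4 lists that overlapped by at least 1 bp were merged, and a merged region with all 4 replicates is called shared. It was counted in a stretch when the median of its summits lay there. Repeated strings are 50-base strings with a second copy, on either strand, on the assembled chromosomes of GRCm38.p6, the assembly that mm10, named in the labels, is made from. Gene models are GENCODE M21, and promoter sequences are RefSeq's, matched through Entrez identifiers. The string counter and promoter reading were tested on simulated data. Python 3.11.15, numpy 2.4.6, pandas 2.3.3, pysam 0.24.0 and matplotlib 3.10.9 were used.

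No test between groups was run, since there is 1 group and members share regions; a gap test for outliers was applied to replicate values. Members, lists, strings and marker genes were chosen with earlier results of these data known. Named members are those without a region, the 10 highest and 5 lowest by mean percentile, the highest and lowest of each class, all of Hist2, Hist3 and Hist4, the testis members, the 5 with the largest SD, the closest and widest divergent pair, and genes near the 5 strongest regions between members. Hist1h1b and members that share a named region are given beside these.

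Alternatives were only the strongest 50000 regions, only regions with a −log10 q of 10 or more, each replicate left out, other windows, summits or starts, ranking by −log10 q or among promoter regions, and one value per region. After seeing the data, windows on the start codon and the RefSeq start, and leaving out members over 50% repeated, were added. Some listed marker genes are not reported here.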

Additional observations from a re-analysis of the deposited data

Results flagged for a closer look

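Of 42 quantities with 4 replicate values, 2 had 1 replicate set apart from the other 3 by the gap test for outliers, about what chance gives at 1 in 20. The promoter percentile of Hist1h4m was 99.9958 in replicate 1, against 99.9947 in each of the others. That of Hist1h4n was 99.877 in replicate 4, against 99.9595 to 99.9684 in the others. Both members stay among the strongest regions of every list.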

How the results depend on the processing

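The count of 59 open members stayed within 1.5 times under every alternative run except the strongest 50000 regions, which left 39 of 67, against 55.5% of all genes. The members' median percentile of 54.4 became 41.3 with a −log10 q of at least 10, 40.4 with the strongest 50000 regions, 35.9 among promoter regions, 49.6 with windows of 500 bp, 49.6 without members over 50% repeated and 58.7 with one value per region. Where the same was computed for all genes it stayed higher, at 75.1, 70.6, 64.2 and 79.3 for the first 4 of these. Ranked by −log10 q it was 96.1, against 85.8, the one of these alternatives that turned the order. The density between members (3.53 per 100 kb) was 3.07 with a −log10 q of at least 10, 1.88 with the strongest 50000 regions, 4.48 in stretches under 50 kb, 2.57 with summits within 100 bp and 3.78 with windows of 500 bp, against 2.08, 1.59, 2.52, 2.01 and 2.52 over the genome. The median distance of the summit from the member's TSS, 203 bp regardless of direction, was 274.5 bp from the start codon. Leaving out each replicate gave 59 open members each time, percentiles of 53.8 to 54.9, densities of 3.48 to 3.67 and distances of 209 to 231 bp. The causes of these shifts were not tested. Counts of members with each string and with the stem-loop moved by less than 1.5 times, while the share of all promoters with a string rose with the longer window. No paired analysis was possible because the series holds only 1 group. Unknown depth and mapping filters limit every value at repeated members.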
